A study of Mus musculus with 6 samples.

Results

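The 10 genes described here are cardiac muscle genes that were measured in dissected embryonic lungs. They are picked out by name, from a list written with earlier results of these data known, and all 10 are among the 23420 genes listed for the embryonic day-11.5 experiment. Of these, *Myh6*, *Myl7*, *Myl4* and *Nppa* are grouped by their main use in the heart as atrial, *Myh7*, *Myl2* and *Myl3* as ventricular, and *Tnnt2*, *Tnni3* and *Actc1* as shared by all heart chambers. RNA-Seq was performed on whole embryonic day-11.5 lungs from Raptorf/+; ShhCre/+ embryos (control) and from their Raptorf/f; ShhCre/+ littermates (mutant), which lack Raptor (*Rptor*), a component of the mTORC1 kinase complex, in the lung epithelium. Both groups carry the ShhCre allele, and the controls also carry 1 floxed *Rptor* allele. In the lung ShhCre acts in the epithelium, so muscle cells were not the cells from which *Rptor* was removed. Each of the 3 control and 3 mutant libraries was made from 3 or 4 lungs of the same genotype combined into a pool, and the pools held different embryos.

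Striated muscle contracts when myosin heavy chains, each carrying a regulatory and an essential light chain, pull on actin filaments, and the troponin complex on those filaments makes this depend on calcium. Mature atrial and ventricular heart muscle use different genes for most of these myosin chains, and the ventricles of the mouse embryo use the slow heavy chain gene *Myh7*. Heart muscle is not a cell type of the airway or lung mesenchyme, but in the mouse the atria lie next to the lung buds, and muscle of atrial type sheathes the pulmonary veins. Several of these genes are also used outside the heart. *Actc1*, *Tnnt2* and *Myl4* are active in embryonic skeletal muscle, and *Myh7* and *Myl3* are used in slow skeletal fibres.

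Levels are given as normalized counts, which are read counts per gene scaled by library size factors. Normalized counts summed to 20705058 to 20865998 per library, and the reads behind them were 20197642 to 21276090 in the 5 libraries for which they could be recovered, so that 1 normalized count is about 1 read. *Rptor*, the targeted gene, was between 2126 and 2279 in the control pools and between 2023 and 2148 in the mutant pools, with overlapping groups (log2 fold change -0.06, SE 0.05, limma adjusted p = 0.584). This bulk value takes in the cells in which ShhCre is not active. Sums over marker lists showed what else the pools held. Epithelial genes summed to 21407 to 23215 in the control pools and to 17009 to 18563 in the mutant pools, and smooth muscle genes to 12844 to 16143 and 17200 to 17583, so neither list overlapped between the groups. Erythroid genes summed to 98497 to 127998 and 98089 to 121796. Among the control pools, pool 3 had the lowest epithelial and smooth muscle sums and the highest erythroid sum, and results that rest on it are given with and without it.

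The label of heart muscle was checked against other heart genes, picked from the cardiac lists after their values were seen. *Ttn*, the giant sarcomere protein, was between 28.4 and 84.5 in the 6 pools, and *Nkx2-5*, a transcription factor of heart muscle, was between 9.80 and 72.6. *Ryr2*, the calcium release channel of heart muscle, was between 329.6 and 374. By contrast, *Nppb* and *Ckm* had at most 2.94 in any pool, *Bmp10*, an atrial growth factor, had at most 3.98, and *Ckmt2*, the mitochondrial creatine kinase of muscle, was at 0 in all pools. Of the 63 other heart genes listed, 56 reached at least 1 normalized count in at least 3 pools and 1 was at 0 in all 6. Of all 23420 genes, 17168 reached the same level. With RNA from whole lungs, fewer muscle cells and less RNA per muscle cell cannot be told apart.

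Stretches of 250 bases before the RefSeq start (GRCm38.p6) are printed for 4 members, 5′ to 3′ on the strand of the gene. They are the 3 members whose stretch holds a CArG box, the sequence bound by serum response factor, a regulator of muscle genes, and *Myh6*, the member with the lowest fold change in the mutant pools, which holds none. Capitals mark the CArG box. Only exact matches were searched, made of CC, a run of A or T of fixed length, and GG. Near matches were not marked. The stretches are chr2:114052876-114053125 (minus strand) for *Actc1*, chr11:5898783-5899032 (minus strand) for *Myl7*, chr9:110763428-110763677 (plus strand) for *Myl3* and chr14:54966608-54966857 (minus strand) for *Myh6*.
Actc1: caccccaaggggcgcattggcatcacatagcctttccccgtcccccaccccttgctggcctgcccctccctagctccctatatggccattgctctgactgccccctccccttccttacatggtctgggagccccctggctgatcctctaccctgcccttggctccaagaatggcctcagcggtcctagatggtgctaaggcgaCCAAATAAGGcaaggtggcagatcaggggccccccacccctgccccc
Myl7: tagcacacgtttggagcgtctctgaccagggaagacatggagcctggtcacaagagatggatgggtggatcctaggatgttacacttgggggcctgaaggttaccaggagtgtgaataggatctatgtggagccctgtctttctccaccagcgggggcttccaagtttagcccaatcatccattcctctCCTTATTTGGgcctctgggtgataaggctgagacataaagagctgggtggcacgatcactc
Myl3: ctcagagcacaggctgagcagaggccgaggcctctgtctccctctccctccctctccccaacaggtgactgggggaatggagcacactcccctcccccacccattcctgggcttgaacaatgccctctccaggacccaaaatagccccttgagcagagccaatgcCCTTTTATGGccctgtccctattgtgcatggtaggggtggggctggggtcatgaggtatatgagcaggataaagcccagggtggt
Myh6: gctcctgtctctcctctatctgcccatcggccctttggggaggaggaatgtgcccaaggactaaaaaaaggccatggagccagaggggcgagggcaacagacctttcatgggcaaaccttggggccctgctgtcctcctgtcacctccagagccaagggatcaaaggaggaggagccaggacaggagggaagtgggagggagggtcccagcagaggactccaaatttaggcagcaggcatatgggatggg

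The CArG box began 47 bases before the start of *Actc1*, 61 before that of *Myl7* and 85 before that of *Myl3*. Over the 13 RefSeq stretches of the 10 members, 3 held a CArG box, against 1.467% of 32851 stretches of this length in the table. Other motifs were searched on both strands. TATAAA, the letters of the TATA box, was in 2 of the 13 stretches (*Myl2* and *Nppa*, against 12.37% of all). It began 216 bases before the start of *Myl2*, as TTTATA, and 9 before that of *Nppa*. AGATAA, bound by GATA factors, was in 2 (*Myl2* and *Tnnt2*, against 9.988%), and TNAAGTG, bound by NKX2-5, in 2 (*Myh7* and *Nppa*, against 10.06%). AGGTGT, bound by TBX5, was in 2 (*Nppa* and *Tnni3*, against 11.83%), and CANNTG, the E-box, in 11 (against 66.22%). No stretch held the MEF2 motif, which is in 2.919% of all stretches. The 4 printed stretches show that the highest members per kb of exon, *Myl7* and *Actc1*, and the low member *Myl3* each hold a CArG box. These matches describe the letters only, and binding was not measured here.

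Levels can be compared between genes only per length, and are given here as normalized counts per kb of exon. The length is that of all annotated exons of a gene merged, which can exceed that of any 1 transcript. It was 7752 bases for *Tnnt2* and 4637 for *Myl4*, whose protein-coding transcripts held 1788 and 1636 different 50-base windows. The order below thus depends on the annotation, and no other length was tried. *Myl7* was highest (414 ± 113, SD over the 6 pools), followed by *Actc1* (237 ± 62.2) and *Myl4* (37.4 ± 6.52). *Tnni3* (20.8 ± 6.16), *Tnnt2* (19.4 ± 2.69), *Myh6* (9.86 ± 6.14) and *Nppa* (6.36 ± 1.47) came next, and *Myh7* (4.25 ± 2.70), *Myl3* (3.35 ± 0.628) and *Myl2* (1.53 ± 0.709) were lowest. The atrial light chain genes were thus far above the ventricular light chain genes per kb. The ranges over pools did not overlap between *Actc1* and *Myl4*, and overlapped between every other pair of neighbours in this order. *Myl7* was nevertheless above *Actc1* in all 6 pools, whereas *Tnni3* was above *Tnnt2* in 2 of 6 and *Myh7* above *Myl3* in 3 of 6.

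**Figure D1:**
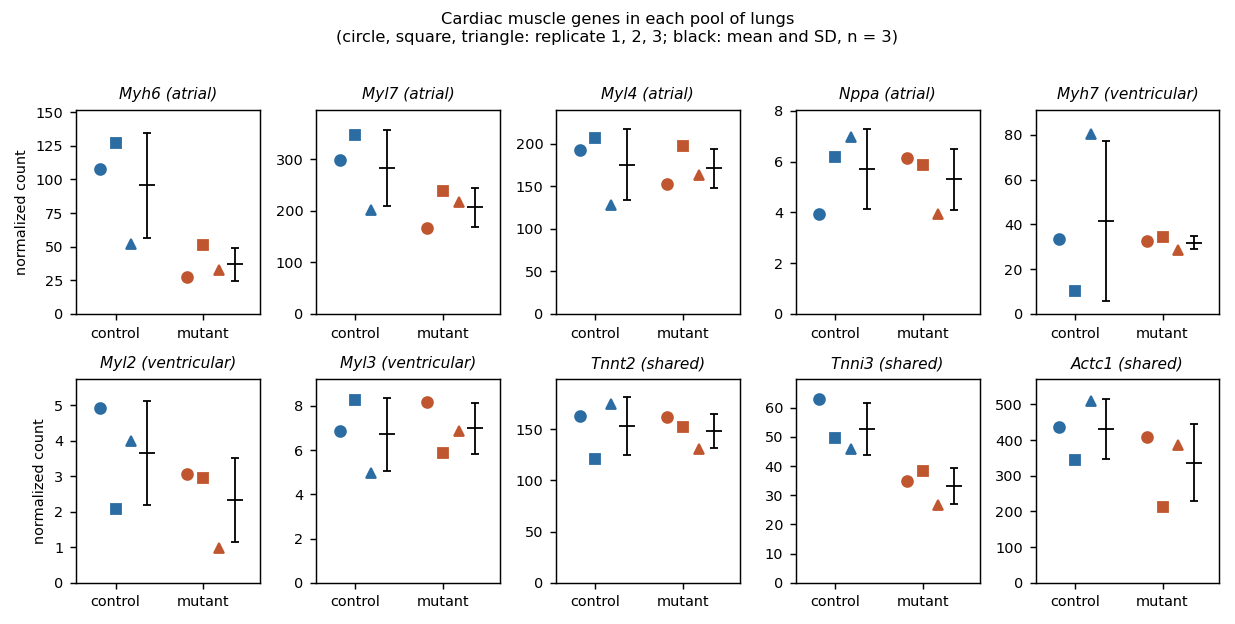
Normalized count (y axis) of each of the 10 cardiac muscle genes in the 3 control pools (blue) and the 3 mutant pools (orange), with circle, square and triangle for replicates 1, 2 and 3 and the mean and SD in black. Myh6 and Tnni3 have every mutant pool under every control pool, and Myh7 has its highest and its lowest value among the control pools.

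The heavy chain genes were described first. *Myh6*, the heavy chain of the atria (chr14:54941921-54966927, minus strand, GENCODE M21 on GRCm38), had 108, 127 and 51.7 normalized counts in the control pools 1, 2 and 3 and 27.6, 51.0 and 32.4 in the mutant pools 1, 2 and 3. All 3 mutant pools lay under the 3 control pools, but the gap between control pool 3 and mutant pool 2 was under 1 normalized count. The mean was 95.6 ± 39.2 (SD, n = 3) in control and 37.0 ± 12.4 in the mutant pools. On the log2(normalized count + 1) scale the fold change was -1.30 (SE 0.33, 95% interval -2.04 to -0.55), with a raw p of 0.00297 and a limma adjusted p of 0.135 over 17168 tested genes, so *Myh6* did not pass the threshold of 0.05.

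Control pool 3 decided this call. Without it the fold change of *Myh6* was -1.69 (limma adjusted p = 0.00435), while the adjusted p was between 0.176 and 0.442 when any other pool was left out. The edgeR test on recovered reads, which also lacks control pool 3, gave -1.66 (adjusted p = 0.00248). In that test the values of *Myh6* rest on 110 and 123 reads in the control pools 1 and 2 and on 27, 52 and 33 reads in the mutant pools.

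*Myh7*, the slow heavy chain of the ventricles and of slow skeletal fibres (chr14:54970684-54994626, minus strand), lies next to *Myh6*. It had 33.4, 10.3 and 80.5 normalized counts in the control pools and 32.7, 34.3 and 28.5 in the mutant pools. The control pools held both the lowest and the highest value, and the mutant pools were close to each other and lay between them. The highest control pool was 7.79 times the lowest, whereas this ratio was 1.21 among mutant pools. The variance over pools was 30.9 times the mean in control and 0.287 times the mean in the mutant pools, where counting error alone gives about 1. Its log2 SD within groups was larger than that of 97.9% of tested genes. The log2 fold change was 0.05 (SE 0.56, 95% interval -1.19 to 1.28, limma adjusted p = 0.980), which leaves room for a large change in either direction. It was -0.69 without control pool 2 and 0.73 without control pool 3.

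The 2 heavy chain genes share sequence, and the way reads that fit both were counted is not given in the sources used here. In the GENCODE M21 transcripts, 21.9% of the 50-base windows and 10.9% of the 100-base windows of *Myh6* occur without mismatch in *Myh7*. No window of either length was shared between *Myl7* and *Myl2*, between *Myl4* and *Myl3*, or between *Actc1* and the actin genes *Acta1* and *Acta2*. Among the control pools, pool 2 had the highest *Myh6* and the lowest *Myh7* and pool 3 the reverse, whereas among the mutant pools both genes were highest in pool 2. The part of shared reads in these levels was not tested.

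Regulatory light chains were next. *Myl7*, the regulatory light chain of the atria (chr11:5896637-5898782, minus strand), had 298, 347 and 202 normalized counts in the control pools and 166, 238 and 216 in the mutant pools. The groups overlapped, because control pool 3 was below mutant pools 2 and 3. The mean was 282 ± 73.9 in control and 207 ± 37.3 in the mutant pools. The log2 fold change was -0.43 (SE 0.19, 95% interval -0.86 to 0.00281) with a limma adjusted p of 0.370, and the raw p was 0.0512. It was -0.65 without control pool 3 (adjusted p = 0.0279) and -0.64 by edgeR, which also lacks that pool (adjusted p = 0.0224). It was -0.26 without control pool 2 (adjusted p = 0.532) and -0.28 without mutant pool 1 (adjusted p = 0.676).

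*Myl2*, its ventricular counterpart (chr5:122100951-122113472, plus strand), was the lowest member per kb. It had 4.91, 2.07 and 3.98 normalized counts in control and 3.07, 2.94 and 0.982 in the mutant pools, and the groups overlapped. The reads behind these values were 5 and 2 in the control pools 1 and 2 and 3, 3 and 1 in the mutant pools, and the exact 95% Poisson interval of the 1 read reaches from 0.0253 to 5.57, counting error only. The log2 fold change was -0.50 (SE 0.51, 95% interval -1.64 to 0.64, limma adjusted p = 0.720), and it moved to between -0.78 (without control pool 2) and -0.16 (without mutant pool 3) when 1 pool was left out. A difference in *Myl2* was not detectable at this depth.

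Among the essential light chains, *Myl4* (chr11:104550663-104595753, plus strand), which is used in the atria and in embryonic muscle, had 193, 207 and 128 normalized counts in the control pools and 153, 197 and 164 in the mutant pools. Control pool 3 was the lowest of all 6 pools and control pool 2 the highest. The mean was 176 ± 41.8 in control and 171 ± 22.8 in the mutant pools, and the log2 fold change was -0.01 (SE 0.18, 95% interval -0.41 to 0.38, limma adjusted p = 0.981).

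*Myl3* (chr9:110741861-110769798, plus strand), the essential light chain of the ventricles and of slow skeletal fibres, had 6.88, 8.26 and 4.97 normalized counts in control and 8.17, 5.88 and 6.87 in the mutant pools. All pools were low and the groups overlapped (log2 fold change 0.06, SE 0.36, limma adjusted p = 0.957). Of its exon bases, 4.65% lie over exons of *Pth1r* on the other strand, a gene with 1894 to 2667 normalized counts. Whether counting used the strand is not given in the sources used here, so the part of *Pth1r* reads in the level of *Myl3* was not tested.

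*Nppa*, which encodes atrial natriuretic peptide (chr4:148000722-148002079, plus strand), had 3.93, 6.20 and 6.96 normalized counts in control and 6.13, 5.88 and 3.93 in the mutant pools. No pool stood out, and the highest value was 1.77 times the lowest in control and 1.56 times in the mutant pools. The log2 fold change was -0.07 (SE 0.40, 95% interval -0.96 to 0.81, limma adjusted p = 0.954). Exons of the antisense gene *Gm13054* cover 61.5% of its exon bases, and its part in these few reads was not tested. Per kb, the hormone of the atria was below the atrial light chains *Myl7* and *Myl4* in mean level.

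The troponins are shared by atria and ventricles. *Tnnt2*, the cardiac troponin T that ties the complex to tropomyosin (chr1:135836354-135852260, plus strand), had 163, 121 and 175 normalized counts in control and 162, 152 and 131 in the mutant pools. The mutant pools lay within the range of the control pools. The means were 153 ± 28.4 and 148 ± 16.3, the log2 fold change was -0.03 (SE 0.16, limma adjusted p = 0.949), and its 95% interval, -0.38 to 0.31, was the narrowest of the members.

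*Tnni3*, the cardiac troponin I that inhibits contraction in the absence of calcium (chr7:4518305-4524229, minus strand), had 62.9, 49.6 and 45.7 normalized counts in control and 34.7, 38.2 and 26.5 in the mutant pools. The 3 control pools all lay above the 3 mutant pools. The mean was 52.7 ± 8.99 in control and 33.2 ± 6.03 in the mutant pools, the log2 fold change was -0.66 (SE 0.22, 95% interval -1.14 to -0.17), and the raw p was 0.0128. The limma adjusted p of 0.218 did not pass, and it was between 0.127 and 0.551 when each pool was left out and 0.103 by edgeR. Variance over mean was 1.53 in control and 1.10 in the mutant pools, close to counting error alone. *Tnni3* shares 4.17% of its exon bases with *Dnaaf3* on the same strand, which had 66.8 to 96.4 normalized counts.

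*Actc1*, the actin of heart muscle and of embryonic skeletal muscle (chr2:114047282-114053548, minus strand), had 437, 343 and 509.9 normalized counts in control and 409, 212 and 387 in the mutant pools. Pool 2 was the lowest of its group in both groups, and the groups overlapped. The mean was 430.0 ± 83.7 in control and 336 ± 108 in the mutant pools, and the log2 fold change was -0.40 (SE 0.23, 95% interval -0.90 to 0.11, limma adjusted p = 0.478). The change was -0.57 without mutant pool 1 and -0.09 without mutant pool 2.

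All 10 members passed the filter of at least 1 normalized count in at least 3 pools. None of the 10 passed the adjusted threshold in limma, where 0.501% of all tested genes did, and 2 (*Myh6* and *Tnni3*, both lower) had a raw p under 0.05, against 13.6% of all tested genes in either direction and 6.89% for lower values. The groups did not overlap for the same 2 genes, both lower in the mutant pools, and 10.5% of all tested genes had this pattern in that direction. The median log2 fold change of the members was -0.24, against -0.00212 over all tested genes, with 8 members below and 2 above 0. Without control pool 3, limma called 2 of the 10 lower (*Myh6* and *Myl7*), against 1.68% of tested genes. The edgeR test on the 5 libraries with recovered reads called the same 2, of 7 members it could test, against 2.32% of its tested genes for lower values.

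**Figure D2:**
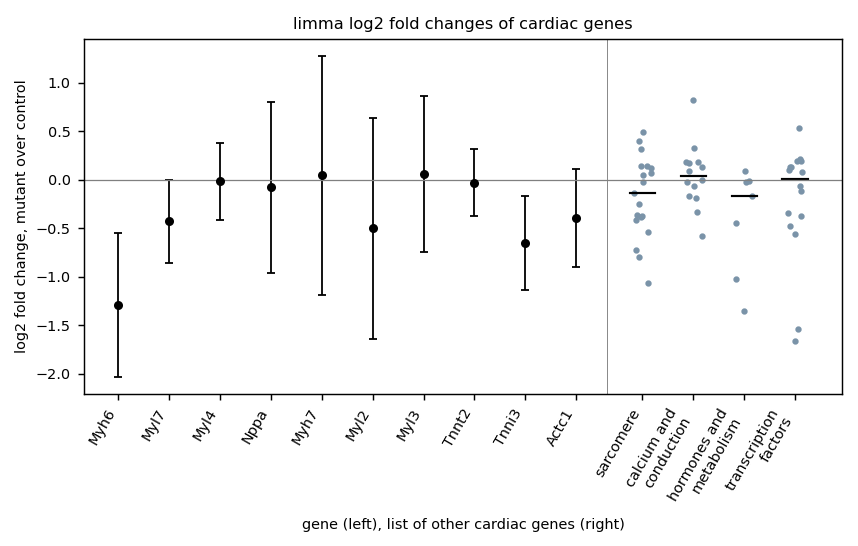
Log2 fold change, mutant over control (y axis), from limma for the 10 cardiac muscle genes with the 95% interval (left) and for each tested gene of the 4 other cardiac lists, with the median as a line (right). The intervals of Myh6 and Tnni3 lie under 0, the upper end of Myl7 is at 0.00281, and the other 7 intervals span 0.

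Summed over the 10 members, the normalized counts were 1310.3, 1221 and 1209 in the control pools and 1002, 937 and 996 in the mutant pools. The groups did not overlap, and the means were 1247 ± 55.4 and 979 ± 35.9, a log2 ratio of -0.35. No test was made of this sum, since the members share pools and *Actc1* gives the largest part of it. Without *Actc1* the sums were 873, 878 and 699 in control and 594, 726 and 610.0 in the mutant pools, and the groups overlapped. The even control sums hid different compositions. Atrial members summed to 602, 687 and 389 in control and to 353, 492 and 416 in the mutant pools. Shared members summed to 663, 513 and 731 in control and to 606, 402 and 544 in the mutant pools. The control pool with the highest sum of atrial members thus had the lowest sum of shared members. Ventricular members were the smallest part of the summed counts throughout, with 45.2, 20.7 and 89.5 in control and 43.9, 43.1 and 36.3 in the mutant pools.

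**Figure D3:**
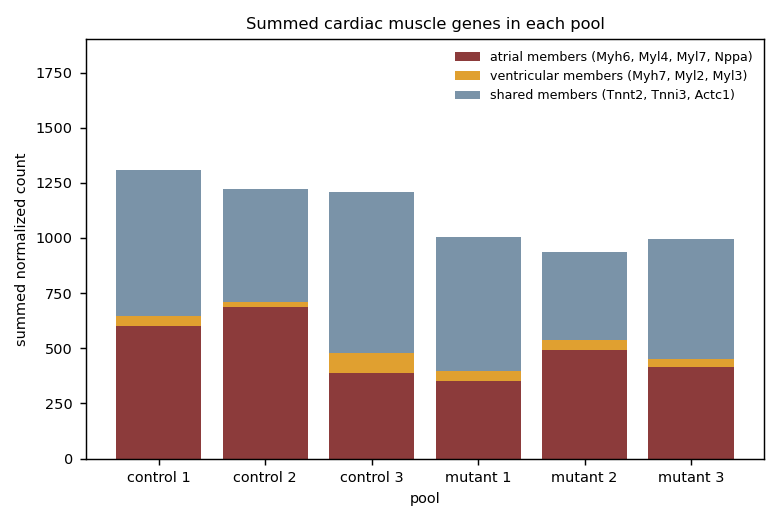
Summed normalized count (y axis) in each of the 6 pools (x axis), split into atrial, ventricular and shared members. Control bars reach 1209 to 1310.3 and mutant bars 937 to 1002, and the atrial part is smaller in control pool 3 (389) than in the control pools 1 and 2 (602 and 687).

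Ratios within a pool hardly depend on its size factor, and were compared for 3 pairs of myosin chain genes. Each pair held 1 atrial and 1 ventricular member. This grouping follows the main use in the heart, and which chambers use each gene at this stage was not measured. The ratios were taken on normalized counts with 1 added, not per kb. The log2 ratio of *Myh6* to *Myh7* was 1.66, 3.50 and -0.63 in the control pools and -0.24, 0.56 and 0.18 in the mutant pools. The atrial heavy chain count thus ranged from 0.646 times to 11.3 times the ventricular one, and both ends of this range were control pools. The means were 1.51 ± 2.07 and 0.17 ± 0.40, a difference of -1.34 (two-sided exact permutation test, p = 0.4, adjusted p = 0.9 over 3 pairs). With 3 pools against 3, the smallest p this test can give is 0.1.

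For the regulatory light chains, the log2 ratio of *Myl7* to *Myl2* was 5.66, 6.83 and 5.35 in control and 5.36, 5.92 and 6.77 in the mutant pools, a ratio of 40.8 to 114 in linear terms. With no 1 added, the ratio of the counts was 50.8 in control pool 3 and 220.0 in mutant pool 3, its lowest and highest values. The groups overlapped, with a difference of 0.07 (exact permutation p = 0.9, adjusted p = 0.9). The essential light chains had log2 ratios of *Myl4* to *Myl3* of 4.62, 4.49 and 4.44 in control and 4.07, 4.85 and 4.39 in the mutant pools, or 16.8 to 28.8 in linear terms. The difference was -0.08 (exact permutation p = 0.7, adjusted p = 0.9). The SD of this ratio was 0.09 in control and 0.39 in the mutant pools, against 2.07 and 0.40 for the heavy chains. The *Myl4* to *Myl3* ratio rests on few *Myl3* reads, 7 and 8 in the control pools 1 and 2. The exact Poisson interval of the 7 reads reaches from 2.81 to 14.4. With counting error this wide, the small control SD does not show a steady ratio. The atrial over ventricular sum had log2 ratios of 3.74, 5.06 and 2.12 in control and 3.004, 3.51 and 3.52 in the mutant pools, following the heavy chains in the control pools.

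**Figure D4:**
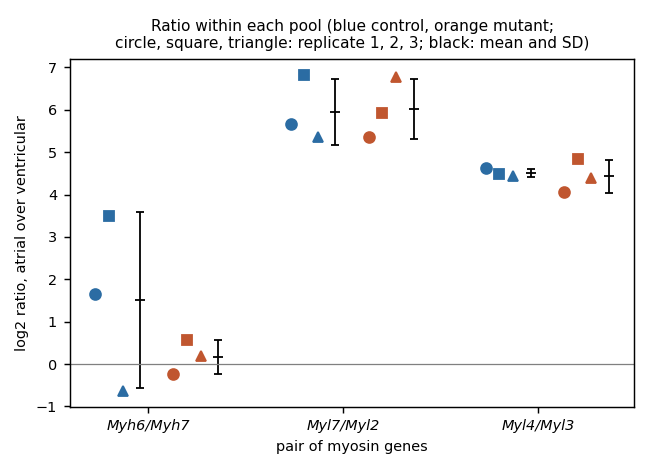
Log2 ratio of the atrial to the ventricular gene within each pool (y axis) for 3 pairs of myosin genes, with control pools in blue, mutant pools in orange, circle, square and triangle for replicates 1, 2 and 3, and mean and SD in black. The light chain ratios stay between 4.07 and 6.83 in all pools, whereas the heavy chain ratio runs from -0.63 to 3.50 among control pools.

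The order of the pools split the members. *Myh6*, *Myl7* and *Myl4* were highest in control pool 2, then 1, then 3, and in mutant pool 2, then 3, then 1. These orders were noticed in the values themselves. Both together were found in these 3 of 10 members and in 5.84% of all tested genes. The ventricular *Myl3* had the control order too, and the fourth atrial member, *Nppa*, did not, being highest in control pool 3. Of 10 smooth muscle genes, 6 were lowest and 3 highest among controls in pool 3, against 38.9% and 38.8% of all tested genes. Of the 10, 6 had the control order of *Myh6* (60%), against 24.3% of all tested genes, and 2 had both orders, *Myh11* and *Mylk*. *Myh11* had 953, 1225 and 598 normalized counts in control and 1395, 1417 and 1403 in the mutant pools. The smooth muscle sum was lowest in control pool 3 and higher in the 3 mutant pools than in any control pool, and its part in the levels of *Myh6*, *Myl7* and *Myl4* was not tested.

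*Myh7*, *Tnnt2* and *Actc1* had the opposite order among control pools, highest in pool 3, then 1, then 2. This order was found in 23.8% of all tested genes, in 24 of the 56 tested genes of the other cardiac lists (42.9%) and in 12 of the 14 tested skeletal muscle genes (85.7%). *Myog*, chosen with *Myod1* after their values were seen, is a transcription factor that starts skeletal muscle differentiation. It was 70.7, 18.6 and 182 in the control pools and 115, 20.6 and 80.5 in the mutant pools, and *Myod1*, another such factor, was 53.0, 13.4 and 97.4 and 58.2, 13.7 and 58.9. Both were lowest in pool 2 of either group, as *Actc1* was. Summed over 15 skeletal muscle genes the pools had 490.1, 332 and 757 in control and 798, 346 and 664 in the mutant pools. The log2 fold changes of the 14 tested genes of that list ran from -0.18 to 1.11. Of the 14 tested genes, 10 had both this control order and their lowest mutant value in pool 2, and among the members *Actc1* alone did. Both together were found in 9.86% of all tested genes. They were also found in 15 of the 56 tested genes of the other cardiac lists (26.8%), so this pattern was not particular to skeletal muscle genes. In the mutant pools *Myh7* was instead highest in pool 2 and *Tnnt2* lowest in pool 3. Between groups the skeletal sum had a log2 ratio of 0.20, mutant over control, where *Actc1* had -0.40. The part of skeletal muscle in the levels of *Actc1*, *Tnnt2* and *Myh7* was not tested.

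**Figure D5:**
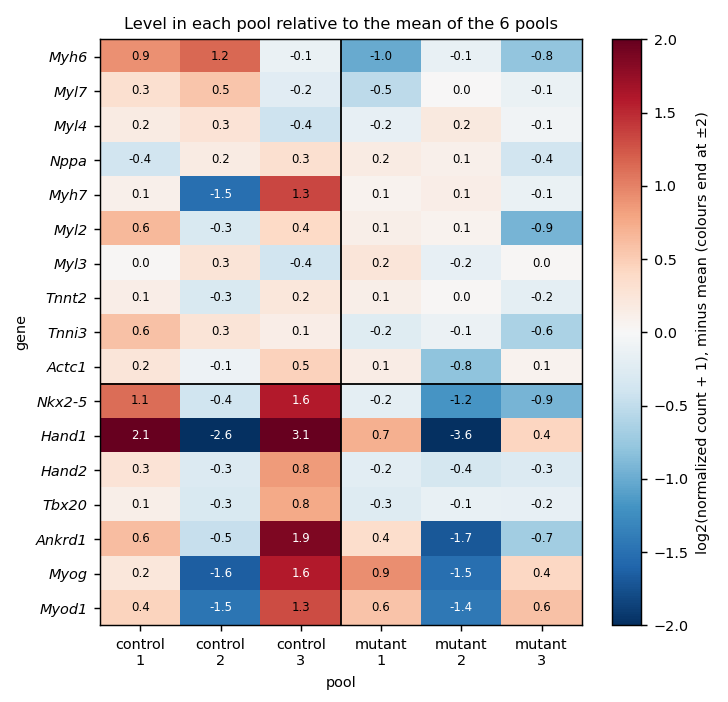
Log2(normalized count + 1) of each gene (rows) in each pool (columns) minus the mean over the 6 pools, for the 10 cardiac muscle genes (above the line) and for 5 other heart genes and 2 skeletal muscle genes chosen after their values were seen (below the line). Myh6, Myl7 and Myl4 are lowest among controls in pool 3, whereas Myh7, Nkx2-5, Hand1, Myog and Myod1 are highest there and lowest in control pool 2.

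The other genes of the cardiac programme were read from 4 lists with 63 genes, of which 56 could be tested. None passed the adjusted threshold in limma (background 0.501%), and 7 were higher and 7 lower at a raw p under 0.05 (25.0% of the genes tested, against 13.6% of all tested genes, 6.67% for higher and 6.89% for lower values). Their median log2 fold change was -0.02. The edgeR test called 3 of the 45 it could test (*Mef2c* and *Tbx18* higher, *Smpx* lower), without control pool 3, against 3.68% of all genes it tested. Hence the heart genes did not move in a single direction, and the 14 genes with a low raw p were divided evenly.

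Among 19 tested sarcomere genes 1 was higher and 3 were lower at a raw p under 0.05. *Tpm1*, the tropomyosin of many muscle types, was 8946 ± 512 in control and 9284 ± 586 in the mutant pools, and *Nebl*, a thin filament protein of heart muscle, 304 ± 81.8 and 394 ± 53.4. *Smpx*, a small protein of striated muscle, had 297, 299.6 and 301 normalized counts in control and 243, 224 and 227 in the mutant pools, with log2 fold change -0.37 (SE 0.08, limma adjusted p = 0.0922). Its control pools were within 5 normalized counts of each other, and all mutant pools were lower. *Mybpc3*, the cardiac myosin binding protein, had 23.6, 25.8 and 25.8 in control and 17.4, 10.8 and 14.7 in the mutant pools (log2 fold change -0.79, SE 0.27, limma adjusted p = 0.222), and was chosen after its values were seen.

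Of 14 tested genes of calcium handling and conduction, 2 were higher and 2 lower at a raw p under 0.05. *Atp2a2*, the calcium pump of the sarcoplasmic reticulum, which most other cells also use, was 7506 ± 311 in control and 6683 ± 116 in the mutant pools (log2 fold change -0.17, SE 0.04, limma adjusted p = 0.124). *Slc8a1*, the sodium-calcium exchanger, was 959 ± 48.5 and 954 ± 12.2. *Gja5*, a gap junction protein of atria and of arterial endothelium, was 604 ± 7.36 and 683 ± 25.8 (log2 fold change 0.17, SE 0.06, limma adjusted p = 0.222). *Casq2*, the calcium store protein, chosen after its values were seen, was 18.3 ± 5.12 and 32.9 ± 8.70 without overlap, and did not pass (log2 fold change 0.82, SE 0.30, limma adjusted p = 0.255).

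Hormone and metabolic genes were mostly low, and only 7 of 12 could be tested, with log2 fold changes from -1.36 to 0.09. *Corin*, the protease that activates natriuretic peptides, was 117, 87.8 and 185 in control and 124, 124 and 122 in the mutant pools. As for *Myh7*, its control pools held the highest and the lowest value and its mutant pools were alike. *Popdc2*, a membrane protein of striated muscle, was 74.1 ± 32.0 and 51.2 ± 11.49, and *Fabp3*, a fatty acid carrier, 61.7 ± 9.58 and 54.9 ± 10.1.

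Of 16 heart transcription factors, 4 were higher and 2 lower at a raw p under 0.05. *Nr2f2*, *Tbx5* and *Gata6*, which act in heart and lung mesenchyme alike, were 5188 ± 56.0, 4758 ± 209.5 and 2535 ± 84.9 in the control pools and 5699 ± 125, 5218 ± 83.5 and 2905 ± 135 in the mutant pools. All 3 were higher in each mutant pool than in each control pool, with limma adjusted p between 0.121 and 0.2. Of the 16 factors, 4 had this pattern, against 9.77% of all tested genes. *Nkx2-5*, chosen after its values were seen, had 52.1, 17.6 and 72.6 in control and 20.4, 9.80 and 11.8 in the mutant pools (log2 fold change -1.54, SE 0.47, limma adjusted p = 0.192). *Hand1*, chosen in the same way, had 51.1, 1.03 and 102 in control and 19.4, 0 and 15.7 in the mutant pools. Control pools 1 and 3 were high and pool 2 low for both genes, and *Hand2*, also chosen after the values were seen, at 434, 297 and 648 in control and 309.6, 281 and 297 in the mutant pools, had this order too. *Nkx2-5*, *Hand1* and *Hand2* thus had the control order of *Myh7*, whereas *Nr2f2*, *Tbx5* and *Gata6* had that of *Myh6*. Of the 56 other cardiac genes tested, 6 had the control order of *Myh6* (10.7%), against 24.3% of all tested genes. That of *Myh7* was in 24 (42.9%), against 23.8%. For *Nr2f2* the control pools that set the order were close, at 5210, 5231 and 5125.

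The mean of the members' log2(normalized count + 1) was 5.77, 5.53 and 5.66 in control and 5.38, 5.42 and 5.18 in the mutant pools. Of 12405 genes outside the lists with a mean of at least 50, those whose log2 values were most like it over the 6 pools were *Tmem128* (Pearson r = 0.992), *Cd2bp2* (0.992), *Kpna4* (0.990), *Smarcal1* (0.987) and *Hes1* (0.981). Their log2 values covered only 0.06 to 0.32, against 0.59 for the members' mean, and 0.766% of the genes screened had r over 0.9. These 6 points share libraries and size factors, and the correlations are a description.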

How the data were processed

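Whole embryonic day-11.5 lungs were measured by RNA-Seq in 3 control and 3 mutant pools of 3 or 4 lungs, grouped by the genotype in the labels. The authors deposited 1 table for the 6 libraries. Its signal values were made by the authors before they were deposited, by scaling the read count of each gene with library size factors (normalized counts). The deposited table also holds log2 fold changes, their errors, a score (the statistic of the test) and p-values, raw and adjusted, which are the authors' own comparison and were not used. The submitters' processing notes name Trim Galore, HISAT2, featureCounts, DESeq2 and the mm10 build. Annotation, strand setting and the treatment of reads that fit several genes are not given in the sources used here.

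The comparison used limma 3.58.1 in R 4.3.3 (eBayes with a trend) on log2(normalized count + 1), for genes with at least 1 in at least 3 pools, with Benjamini-Hochberg adjustment over 17168 genes, a threshold of 0.05 and no replicate block. In all 6 libraries 100% of the values were whole multiples (tolerance 0.01) of a single step per library, which gives their reads. In control pool 3 that step, 0.994, was so close to 1 that the reads were not taken as recovered, and edgeR 4.0.16 (quasi-likelihood, TMM) was run on the 5 others, so its calls are made without that pool. Ratios of paired genes went into two-sided exact permutation tests, and sums over genes were not tested. Both fits were tested on simulated data. Depth limits the members with fewer than 10 reads per pool (*Myl2*, *Myl3* and *Nppa*), and Poisson intervals cover counting error only. The replicates are pools of different embryos, so p-values measure the spread between these pools.

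The members and gene lists were chosen with earlier results of these data known. The genes named are the 10 members, *Rptor*, the 3 genes with the highest mean in each of the 4 other cardiac lists, the 5 most like the members' mean, and others marked as chosen after their values were seen. Alternatives were edgeR, the removal of any 1 of the 6 pools, limma without the trend, upper-quartile scaling, a pseudocount of 0.1, the filter set to at least 10 throughout or dropped, and a block for the replicate number. Coordinates and exon lengths are from GENCODE M21 (GRCm38), and promoter stretches, found for all 10 members, from RefSeq (GRCm38.p6).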

Additional observations from a re-analysis of the deposited data

How the results depend on the processing

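The threshold was passed by 86 of 17168 tested genes in the comparison as reported, by 8 of 17168 in limma without the trend and by 545 of 14791 by edgeR on 5 libraries. When 1 pool was left out, between 1 (without control pool 1 or mutant pool 3) and 468 (without control pool 3) passed, of 16853 to 17033 tested. No cardiac member passed in the comparison as reported (2 at a raw p under 0.05), and 0 to 2 did when 1 pool was left out. The 2 were *Myh6* and *Myl7*, without control pool 3, and edgeR, which also lacks that pool, called 2 as well, the same genes. Of the other cardiac genes none passed as reported (14 at a raw p under 0.05), 0 to 2 did when 1 pool was left out (*Hand2* and *Nkx2-5* without control pool 2, *Mef2c* and *Tbx18* without control pool 3), and edgeR called 3 (*Mef2c*, *Smpx* and *Tbx18*). Signs turned by edgeR for *Tnnt2* (log2 fold change 0.0582) and *Corin* (0.26). When 1 pool was left out, the log2 fold change ranged from -0.69 to 0.73 for *Myh7*, -0.65 to -0.26 for *Myl7*, -0.78 to -0.16 for *Myl2*, -0.11 to 0.21 for *Myl3*, -0.23 to 0.12 for *Myl4*, -0.28 to 0.0947 for *Nppa*, -0.19 to 0.0728 for *Tnnt2*, -0.26 to 0.28 for *Corin* and -0.0305 to 0.0349 for *Slc8a1*. The differences in log2 ratio ranged from -2.41 to -0.35 for *Myh6*/*Myh7*, -0.30 to 0.51 for *Myl7*/*Myl2* and -0.28 to 0.10 for *Myl4*/*Myl3*. The cause was not tested. Counts over the named genes include those given above. Under the alternatives that keep all pools or use edgeR, 213 of 220 log2 fold changes kept direction and side of the threshold. With 1 pool left out, 176 of 198 did. The log2 ratio of the summed members stayed between -0.37 and -0.31 without any 1 pool. *Myl2*, *Myl3* and *Nppa* were not tested by edgeR or with the filter of at least 10. Same-numbered pools hold different embryos, and their deviations correlated at -0.0189, 0.1009 and 0.0307. These values cover all tested genes together, and pairing in a smaller set of genes was not tested. With a replicate block 71 genes passed and no member did. At a raw p under 0.05 there were 4 members (*Myh6*, *Actc1*, *Tnni3* and *Myl7*), against 2324 of all 17168 genes. The limma adjusted p with the block was 0.0588 for *Myh6* and 0.163 for *Actc1*, against 0.135 and 0.478 without it. With the block the ratio differences stayed at -1.34, 0.07 and -0.08. The block cannot change them, because each replicate number holds 1 control and 1 mutant pool.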
